A study of Mus musculus with 2 samples.

Results

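Myometrial smooth muscle cells were taken from droplet single-cell transcriptomes of whole mouse uterus, and 739 of 8603 cells belonged to them. They were chosen by measured values. UMIs, unique molecular identifiers, each stand for 1 captured transcript. A barcode counted as a cell with 500 or more genes and no more than 20% of UMIs from the mitochondrial genome. To be a member, a cell needed at least 1% of its UMIs in Actg2, Cnn1, Des, Tagln, Acta2 and Myh11 together, with at least 3 of these 6 genes detected, and 0 UMIs of Ptprc and of Epcam. These 6 genes are called the rule genes here. Their levels, and every difference between the members and other cells, describe how the members were chosen and are given with no test. The control library held 232 members and the cKO library 507.

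The uteri came from female mice aged 6 months. Control animals carried Prickle1 f/f, a floxed Prickle1 gene, and the conditional knockout (cKO) animals carried Prickle1 f/f with Ltf-cre, called Ltf-iCre in the series text. Ltf encodes lactoferrin, a protein of the oestrogen-stimulated uterine epithelium and not of smooth muscle, so this Cre marks an epithelial deletion. Both groups carried the floxed alleles. For each group, 3 mice were pooled into 1 library, and no difference has a replicate check. A genotype difference cannot be told apart from a difference between the pools, their dissociation or their libraries. The groups follow the sample titles, because a separate genotype label names both samples C57BL/6J wild-type. All intervals below are exact 95% intervals that cover counting error only. A value given as cKO over control is a ratio of CPM, followed by its interval.

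The myometrium is the muscular wall of the uterus, built of an inner circular and an outer longitudinal layer of smooth muscle. Its cells shorten when calcium binds calmodulin, myosin light chain kinase phosphorylates the regulatory light chain of smooth muscle myosin, and myosin pulls on thin filaments of actin and tropomyosin. Steroid hormones set how excitable the wall is: progesterone keeps it quiescent, while oestrogen favours gap junctions and oxytocin receptors. Transcription of contractile genes depends on serum response factor and its cofactor myocardin, which act through CArG boxes in their control regions.

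The libraries totalled 45035801 UMIs in control and 57145553 in cKO, over 3653 and 4950 cells with medians of 4650 and 5944 UMIs. The members were shallower, with medians of 1331 UMIs and 692.5 genes in control and 1293 UMIs and 733 genes in cKO. Summed over members, the counts came to 401845 UMIs in control and 1103769 in cKO, and CPM is relative to these sums. The deepest control member had 8922 UMIs. In cKO 10 members exceeded 10000 UMIs, held 25.1% of all member UMIs, and the deepest alone (89170 UMIs) held 8.08%. Of the barcode sequences, 5 occurred among the cells of both libraries and 0 among the members. Doublet scores exceeded 0.25 in 3 control members and 0 cKO members.

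Promoter stretches of 5 cytoskeletal genes and of Pcp4 are shown for the CArG box, the element through which serum response factor acts. Myl9, Myl6, Cnn2 and Vcl (vinculin, which links actin to the membrane) hold an exact box, and Acta2 and Pcp4 only the relaxed form defined here. The box was read as CC, 6 letters that are each A or T, and GG. It reads the same way on both strands, so one search covered both. In RefSeq promoters on GRCm38.p6, the 250 bases upstream of the start held a box in 482 of 32851 promoters (1.47%). In a relaxed form, with up to 1 of the 6 core letters being G or C, 8.59% of promoters held one. Among the actomyosin and thin filament genes, 29 of 30 matched the table, and 6 of their 34 promoters (17.6%) held an exact box. The 6 include 2 overlapping promoters of Ldb3 that share the same box. Ldb3 had fewer than 20 UMIs over the members of both libraries. Of the rule genes, Acta2, Cnn1 and Des matched, with an exact box in 0 of 3 promoters and the relaxed form in Acta2. Pcp4, among the genes most enriched in the members, also had the relaxed form. The stretches run 5′ to 3′ on the strand of the gene, with the boxes in capitals.
Myl9: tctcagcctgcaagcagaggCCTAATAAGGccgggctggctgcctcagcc
Myl6: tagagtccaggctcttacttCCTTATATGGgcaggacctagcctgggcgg
Cnn2: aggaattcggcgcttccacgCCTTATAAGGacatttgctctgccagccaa
Vcl: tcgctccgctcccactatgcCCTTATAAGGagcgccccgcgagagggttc
Acta2: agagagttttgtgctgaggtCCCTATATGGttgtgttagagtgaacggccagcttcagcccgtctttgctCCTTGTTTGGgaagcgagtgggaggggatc
Pcp4: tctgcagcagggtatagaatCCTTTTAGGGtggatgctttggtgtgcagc
They lie at chr2:156775283-156775332 (Myl9, plus strand), chr10:128493030-128493079 (Myl6, minus strand), chr10:79988524-79988573 (Cnn2, plus strand), chr14:20929151-20929200 (Vcl, plus strand), chr19:34255378-34255477 (Acta2, minus strand) and chr16:96467479-96467528 (Pcp4, plus strand). The boxes began 161 bases upstream of the start in Myl9, 50 in Myl6, 56 in Cnn2 and 227 in Vcl. In Acta2 the 2 relaxed boxes began 84 and 34 bases upstream, and in Pcp4 the box began 107 bases upstream. These are matches of letters in a window, and the files measure no binding there.

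Of the rule genes, Actg2 differed most between the libraries. Their sum is bounded by the choice of members, so these levels are a description. Actg2 (enteric smooth muscle gamma actin, chromosome 6, 83512905 to 83536265 on the minus strand in GRCm38) had 3148 CPM in control against 1239 in cKO. Acta2, the smooth muscle alpha actin, had 6664 CPM in control against 4552 in cKO. Tagln, the actin-binding protein transgelin, had 7503 CPM in control against 5217 in cKO. These 3 genes were lower in cKO members. Myh11, the smooth muscle myosin heavy chain, had 1426 CPM in control against 1617 in cKO, and Cnn1, calponin, had 1461 CPM in control against 1507 in cKO. Des, the muscle intermediate filament desmin, had 2802 CPM in control against 3309.6 in cKO. Together the 6 genes made up 2.30% of member UMIs in control and 1.74% in cKO. In cell-free barcodes (1 to 100 UMIs) they made up 0.146% and 0.306%, and in all other cells 0.0287% and 0.0624%. All 6 genes were detected in 118 control members (50.9%) and 248 cKO members (48.9%).

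The 1% minimum cut through a continuous range of values, with more cells close to it in cKO. Among gate-passing cells (0 Ptprc and 0 Epcam UMIs) with at least 3 rule genes, 35 control cells lay within 0.25 percentage points below the minimum and 23 within 0.25 above it. In cKO the same ranges held 100 and 98 cells. Closer still, up to 1.1%, lay 10 control and 51 cKO members, with medians of 1.06% and 1.04%. From 0.9% up to the minimum lay 17 and 32 cells, with medians of 0.923% and 0.944%. The median member had 2.04% in control and 1.67% in cKO.

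**Figure D1:**
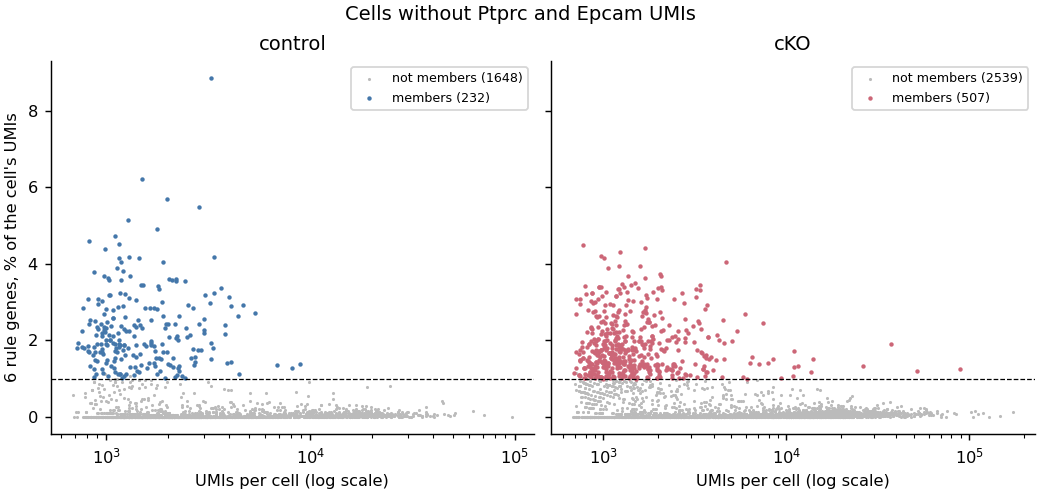
Share of each cell's UMIs in the 6 rule genes (vertical axis, percent) against its UMIs (horizontal axis, log scale) for cells without Ptprc and Epcam UMIs, with 1 point per cell, members in colour and the 1% minimum dashed. The 232 control and 507 cKO members lie mostly below 10000 UMIs, and in cKO 10 lie above it.

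Markers of other cell types were checked in the members. Pericyte and vascular smooth muscle markers summed to 64.7 CPM in control and 100.6 CPM in cKO over 12 genes. Notch3, Gja4, Rergl, Ndufa4l2 and Higd1b were at 0 UMIs in both libraries. Rgs5 had 1 UMI in control and 25 in cKO, of which 48% lay in 1 cell. Leukocyte markers summed to 19.9 and 18.1 CPM over 16 genes, and endothelial markers to 9.95 and 34.4 CPM over the 11 of 12 genes found. Epithelial markers summed to 351 CPM in control and 58.9 CPM in cKO, against 5958 and 697 CPM in cell-free barcodes. The epithelial sum was lower in cKO in members and in cell-free barcodes, and its part in other differences was not tested. Pericyte markers were low but not all absent: Kcnj8 had 7 UMIs in control and 15 in cKO, Abcc9 had 2 and 18, and Mcam, which smooth muscle can also express, had 11 and 32. The pericyte sums lay above the 36.9 and 79.6 CPM of cell-free barcodes.

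Stromal fibroblast markers were present at a low level. Their 14 genes summed to 1669.8 CPM in control members and 1582 CPM in cKO members, against the 1718 and 4180.1 CPM of cell-free barcodes. Pdgfra, a fibroblast receptor, had 3 UMIs in control and 5 in cKO. Dcn (decorin) had 712 CPM in control against 387 in cKO, and Lum (lumican) had 266 CPM in control against 119 in cKO. Dio2, a deiodinase of endometrial stroma, had 1 UMI in control and 122 in cKO, and 59.0% of the cKO UMIs lay in 1 cell.

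The members made up 6.35% of control cells (5.58 to 7.19) and 10.2% of cKO cells (9.41 to 11.1). Of cells without Ptprc and Epcam UMIs they were 12.3% (10.9 to 13.9) of 1880 in control and 16.6% (15.3 to 18.0) of 3046 in cKO. Both differences depended on the marker minimum. With 2% of UMIs in the rule genes, members were 3.28% of control cells and 3.39% of cKO cells, and 6.38% and 5.52% of cells without Ptprc and Epcam UMIs, the opposite direction. The members' share of these cells was highest among shallow cells. In control it was 34.2% below 1000 UMIs, 24.5% from 1000 to 1500, 16.9% from 1500 to 2500, 8.8% from 2500 to 5000 and 1.64% from 5000 to 10000. Above 10000 UMIs it was 0 of 412 control cells, with an exact upper limit of 0.891%. In cKO the shares were 42.8%, 49.6%, 33.6%, 14.8% and 2.89% in the same ranges and 0.81% above 10000 UMIs. The gate itself removed 4 of 236 control cells and 8 of 515 cKO cells that met the other criteria. A single-cell share counts cells that were freed and passed the gene minimum, and how much each step set these shares was not tested.

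Many members lacked the RNAs that stay in the nucleus, with a higher share of such members in cKO. Malat1, Neat1, Xist, Meg3 and Kcnq1ot1 are long noncoding RNAs retained in or near the nucleus, and Xist coats the inactive X chromosome in female cells. Of the members, 86 of 232 in control (37.1%, 30.8 to 43.6) and 350 of 507 in cKO (69.0%, 64.8 to 73.0) had 0 UMIs of all 5. The same held for 4 of 775 control cells and 8 of 1774 cKO cells with a Ptprc UMI. Non-members that passed the gate and had 690 to 3351 UMIs, a range that runs from the shallowest member to the 90th percentile of cKO members, lacked all 5 in 135 of 779 control cells (17.3%) and 235 of 542 cKO cells (43.4%). Deeper non-members lacked them in 16 of 811 and 16 of 1801 cells. Both sets of non-members leave out cells with at least 3 rule genes and 0.5% up to 1% of UMIs in them. At any depth, these left-out cells lacked all 5 RNAs in 16 of 57 in control (28.1%) and 110 of 194 in cKO (56.7%). The share was higher in cKO among members and among the other cells of similar depth. Members with under 1% of UMIs in these RNAs are compared below, but 42.2% of them in control and 74.2% in cKO still lacked all 5. The part of this share in the differences between the libraries was not tested.

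**Figure D2:**
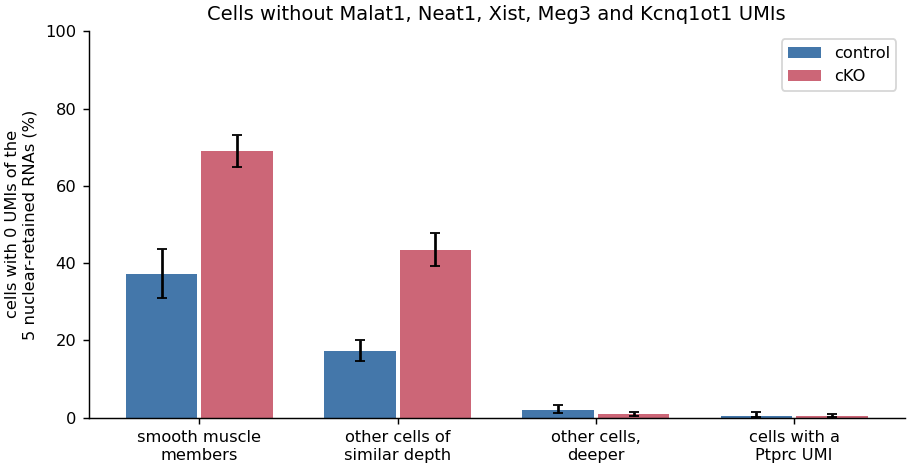
Percent of cells with 0 UMIs of Malat1, Neat1, Xist, Meg3 and Kcnq1ot1 (vertical axis) in 4 sets of cells, with bars for control and cKO and exact 95% intervals as error bars. The members reach 37.1% in control and 69.0% in cKO, above the other cells of similar depth in each library.

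Xist was detected in 5.17% of control members and 6.71% of cKO members, against 92.9% and 94.4% of cells with a Ptprc UMI, whose median depths were 6629 and 5655.5 UMIs. After thinning every cell to 1000 UMIs, Xist was detected in 5.49% (2.67 to 9.87) and 6.79% (4.48 to 9.79) of members, and in 67.6% (64.2 to 70.9) and 66.9% (64.6 to 69.1) of cells with a Ptprc UMI. Malat1 at the same depth was detected in 50% (42.5 to 57.5) and 25.1% (20.8 to 29.7) of members and in 99.0% (98.0 to 99.5) and 99.3% (98.7 to 99.6) of cells with a Ptprc UMI. The low detection in members was still there at equal depth.

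The members were split by a set limit into a large set with little nuclear-retained RNA and a small set with more of it. Under 1% of UMIs in the 5 RNAs lay 204 control members (87.9%) and 472 cKO members (93.1%), called nuclear-poor here. At or over 1% lay 28 and 35 members, called nuclear-bearing. This 1% limit was chosen after the values were seen, and 16 control and 19 cKO members lay between 0.5 and 2%. From 0.5 to 1% lay 9 control and 7 cKO members, and from 1 to 2% lay 7 and 12, so no gap marked the limit. Pooled, the 5 RNAs were 0.0894% of nuclear-poor UMIs in control and 0.0419% in cKO, and 5.30% and 4.27% of nuclear-bearing UMIs. Cell-free barcodes had 3.00% and 1.47%, and all other cells 4.28% and 2.54%. The limit itself lies below both cell-free shares.

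Nuclear-bearing members were deeper, with medians of 1723 UMIs in control and 4580 in cKO against 1281.5 and 1238.5 in nuclear-poor members. All 10 cKO members above 10000 UMIs were nuclear-bearing. The rule genes were 2.37% of nuclear-poor UMIs in control and 1.91% in cKO, and 1.98% and 1.44% of nuclear-bearing UMIs. Ribosomal protein transcripts were 24.7% and 18.8% of nuclear-poor UMIs and 19.6% and 12.8% of nuclear-bearing UMIs. Every member had to hold 1% of its UMIs in the rule genes, so their presence in both sets is part of the choice of members.

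Immediate early genes were far higher in nuclear-bearing members. The median log2 ratio of nuclear-bearing to nuclear-poor CPM was 1.92 over 21 of 26 genes in control and 1.93 over 25 in cKO. Fos, a rapidly induced AP-1 transcription factor, had 263 CPM in nuclear-poor and 1927 CPM in nuclear-bearing control members, and 124 and 1739.8 CPM in cKO. Egr1, a zinc finger factor of the same early response, had 392 CPM in nuclear-poor and 1838 CPM in nuclear-bearing control members, and 181 and 1884 CPM in cKO. Both were higher in nuclear-bearing members of each library. Actomyosin and thin filament genes had medians of 0.08 and 0.19, and respiratory chain genes -0.20 and -0.30, against medians of all genes of -0.17 over 3072 genes in control and -0.09 over 6254 in cKO. Several other lists were also well above 0 in cKO, with 1.40 for stromal fibroblast markers, 1.20 for ion channels, 1.20 for contraction-associated receptors, 1.19 for basement membrane, 0.99 for adhesion and 0.94 for interstitial matrix genes. In control the same lists had medians of 0.30, 0.69, -0.64, 0.26, -0.04 and 0.35. Dstn, the actin-severing destrin, was chosen after its values were seen, and it had 4002 CPM in nuclear-poor and 3216 CPM in nuclear-bearing control members, and 5124 and 1882 CPM in cKO.

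Beyond the rule genes, the 20 genes with the highest ratio of member CPM to that of all other cells included 6 of the myosin motor and thin filament. The ranking took the lower ratio of the 2 libraries, among genes with at least 100 UMIs in members of each. These ratios describe the choice of members. Myosin motor genes among them were Myl9, the regulatory light chain, at 164 times the level of all other cells in control and 52.5 times in cKO, Myl6, the essential light chain, and Mylk, the kinase that phosphorylates Myl9, at 118 times the level of all other cells in control and 52.5 times in cKO. Thin filament genes were Tpm1 and Tpm2 (tropomyosins) and Smtn (smoothelin), with Tpm2 at 42.3 times the level of all other cells in control and 27.8 times in cKO. Pcp4, a small regulator of calmodulin known from myometrium, stood at 166 times the level of all other cells in control and 70.6 times in cKO, and its relative Pcp4l1 at 18.3 times the level of all other cells in control and 33.3 times in cKO. Ckb, the brain-type creatine kinase that buffers ATP, stood at 40.1 times the level of all other cells in control and 9.05 times in cKO. The others were Hspb7, Dmpk, Mrvi1, Ptn, Gas1, Csrp1, Tspan13, Lpp, Ptms, Cavin3 and Lbh. Of these, Mrvi1 is the substrate through which cGMP-dependent kinase restrains calcium release.

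The count of genes at least 2-fold apart between the libraries gives the background for the lists. In the library where their CPM was higher, 3117 genes reached 50 UMIs. Of these, 444 (14.2%) were at least 2-fold higher in cKO and 53 (1.7%) at least 2-fold lower. Of 7060 genes with at least 20 UMIs over both libraries, 858 (12.2%) were at least 2-fold higher and 329 (4.66%) lower, and the median log2 ratio was 0.20. In nuclear-poor members, 5831 genes had at least 20 UMIs, of which 612 (10.5%) were at least 2-fold higher and 258 (4.42%) lower, with a median of 0.20. Each minimum in UMIs admits more genes through cKO, whose members hold 1103769 UMIs against 401845, so the excess of higher over lower genes is not read as a result. These shares are the background for each list below, and the list counts use the genes with at least 20 UMIs. Scaling by trimmed means (TMM) in place of totals shifted every log2 ratio by -0.11. Under the 50 UMI minimum, 253 genes were at least 2-fold higher without the 10 deepest cKO members, and 236 in nuclear-poor members.

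Prickle1, the targeted planar cell polarity gene, was scarce in these cells. Prickle1 (ENSMUSG00000036158, chromosome 15, 93499114 to 93595891 on the minus strand in GRCm38) had 7 UMIs in control and 20 in cKO, or 17.4 and 18.1 CPM, cKO over control 1.04 (0.423 to 2.91). Reads from the end of a transcript say little of which exons a floxed allele lost, and the labels do not name them, so these counts check no deletion. A difference between the libraries was not detectable at this depth, and over the alternatives the log2 ratio lay between -0.11 and 1.73. Its relative Prickle2 had 22 UMIs in control and 93 in cKO, cKO over control 1.54 (0.959 to 2.57). Wnt4 and Wnt5a, ligands of this pathway, had 10 UMIs in control and 80 in cKO and 4 UMIs in control and 60 in cKO. With a marker minimum of 2% the log2 ratio of Wnt5a went from 2.29 to -0.47. Ror2, a receptor for Wnt5a, had 21 UMIs in control and 146 in cKO, cKO over control 2.53 (1.60 to 4.21). Axin2, a feedback target of canonical Wnt signalling, had 2 UMIs in control and 55 in cKO, cKO over control 10.0 (2.64 to 84.7). A single cKO cell held 25.5% of its UMIs. Dact1, an intracellular Wnt modulator, had 0 UMIs in control and 33 in cKO. Dkk2, a secreted Wnt antagonist, had 54 UMIs in control and 66 in cKO, cKO over control 0.445 (0.306 to 0.650) in all members and 0.843 (0.546 to 1.32) in nuclear-poor members. Of 16 genes counted in this list, 5 were at least 2-fold higher and 1 lower, with a median of 0.60. In nuclear-poor members 3 of 12 were at least 2-fold higher and 0 lower, with a median of 0.35. The list median was 0.57 in non-members of similar depth and 0.44 in cells with a Ptprc UMI.

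**Figure D3:**
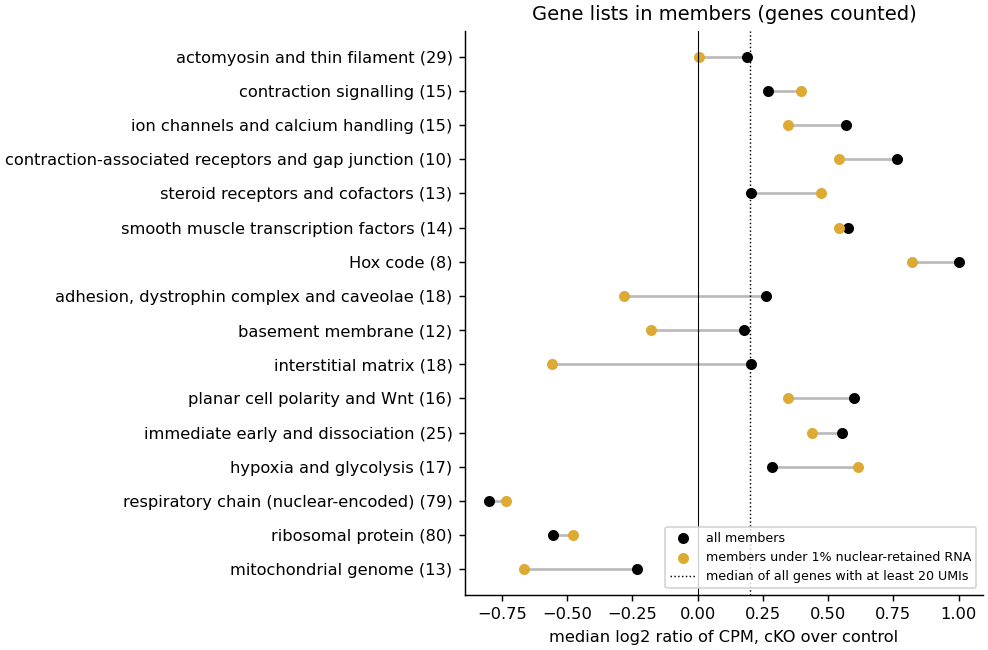
Median log2 ratio of CPM in cKO over control (horizontal axis) for 16 gene lists, with the number of genes counted in brackets, for all members (black) and nuclear-poor members (yellow); the dotted line is the median of all genes with at least 20 UMIs. The respiratory chain and ribosomal protein lists lie furthest left among the black points at -0.80 and -0.56, and the interstitial matrix list goes from 0.20 to -0.56 between the 2 sets of members.

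Genes of the contractile apparatus lay on both sides, with Tpm2, Myl9, Tpm1 and Myl6 lower and Actn1 and Flna higher in cKO. Of 29 actomyosin and thin filament genes counted, 4 were at least 2-fold higher and 2 at least 2-fold lower in cKO, with a median log2 ratio of 0.19 (0.00 in nuclear-poor members), a share and a median close to those of all genes. Tpm2 had 3755 CPM in control against 1812 in cKO and was 2.07-fold lower in cKO (1.94 to 2.22). Myl9 had 2775 CPM in control against 1423 in cKO and was 1.95-fold lower in cKO (1.80 to 2.11). Tpm1 had 3743 CPM in control against 2718 in cKO and Myl6 had 4663 CPM in control against 3462 in cKO. These 4 genes were lower in cKO in all members and in nuclear-poor members. Mylk, by contrast, had 3944 CPM in control against 3481 in cKO, and in nuclear-poor members its ratio was 1.05 (0.979 to 1.12). Actn1, the actin crosslinker alpha-actinin, had 435 CPM in control against 887 in cKO, cKO over control 2.04 (1.73 to 2.41), and in nuclear-poor members 1.87 (1.57 to 2.25). Flna, filamin, which crosslinks actin into networks, had 423 CPM in control against 819.9 in cKO, cKO over control 1.94 (1.64 to 2.30), and in nuclear-poor members 1.54 (1.26 to 1.91). Lmod1, leiomodin, which nucleates actin in smooth muscle, had 32 UMIs in control and 156 in cKO, cKO over control 1.77 (1.21 to 2.68). Vim, vimentin, had 338 CPM in control against 149 in cKO and was 2.26-fold lower in cKO (1.79 to 2.86). Actg2 in nuclear-poor members was 2.31-fold lower in cKO (2.12 to 2.52).

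Tpm2, Myl9 and Pcp4 also had fewer cKO members with a UMI at equal depth. Actg2, a rule gene, is given with them as a description. After thinning to 1000 UMIs, which left 182 control and 383 cKO members and dropped 50 and 124, Actg2 was detected in 85.7% (79.8 to 90.5) of control members and 66.3% (61.3 to 71.0) of cKO members. Pcp4 was detected in 94.5% (90.1 to 97.3) of control members and 80.2% (75.8 to 84.0) of cKO members. Tpm2 was detected in 91.8% (86.8 to 95.3) of control members and 79.4% (74.97 to 83.3) of cKO members, and Myl9 in 88.5% (82.9 to 92.7) of control members and 72.3% (67.6 to 76.7) of cKO members. Mylk was detected in 90.1% (84.8 to 94.03) of control members and 91.9% (88.7 to 94.4) of cKO members, and Tagln in 98.4% (95.3 to 99.7) of control members and 99.0% (97.3 to 99.7) of cKO members. In non-members of similar depth, Actg2 was detected in 1.73% (0.897 to 3.00) and 2.33% (1.12 to 4.24) of cells, with median depths of 1697 and 1607.5 UMIs before thinning. A low share of rule gene UMIs was part of how these non-members were chosen. At 2000 UMIs, a depth reached by far fewer members, the difference for Tpm2 was 2.25 percentage points, cKO minus control, and for Actg2 -6.37.

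**Figure D4:**
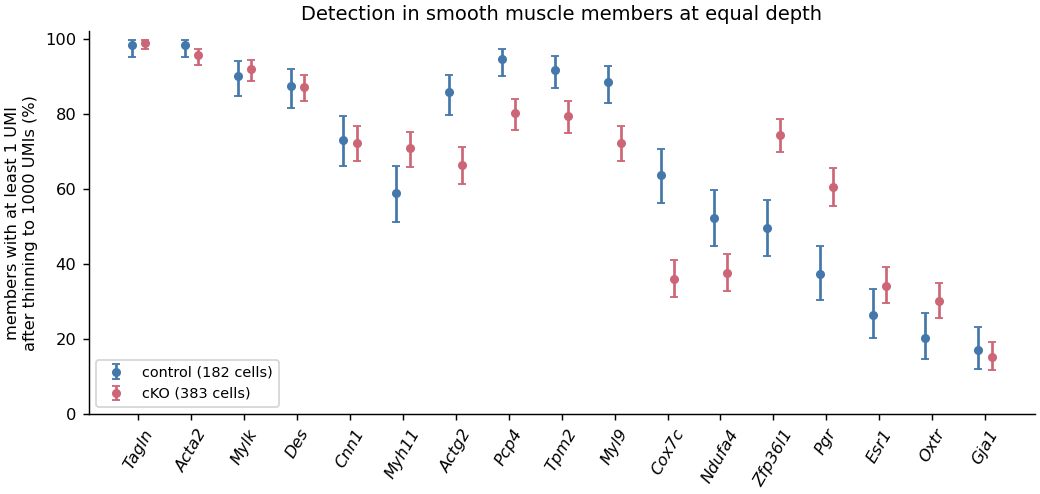
Percent of members with at least 1 UMI of each gene after thinning each cell to 1000 UMIs (vertical axis), for 182 control and 383 cKO members, with exact 95% intervals. Actg2, Pcp4, Tpm2, Myl9, Cox7c and Ndufa4 are lower in cKO, and Zfp36l1 and Pgr are higher.

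Genes that switch contraction on and off lay on both sides. Of 15 contraction signalling genes counted, 3 were at least 2-fold higher in cKO and 1 lower, with a median of 0.27. Rhoa, the GTPase that sensitises the filaments to calcium, had 448 CPM in control against 487 in cKO, cKO over control 1.09 (0.917 to 1.30). Ppp1r12a and Ppp1r12b, targeting subunits of myosin phosphatase, had ratios of 1.70 (1.28 to 2.30) and 2.12 (1.42 to 3.26), and Ppp1cb, a catalytic subunit, 1.30 (1.11 to 1.53). Ppp1r14a, the phosphatase inhibitor CPI-17, had 47 UMIs in control and 56 in cKO and was 2.31-fold lower in cKO (1.53 to 3.46). Calm2, which encodes calmodulin, had a ratio of 0.660 (0.578 to 0.754). Rgs4, which shortens signals of receptors coupled to Gq, had 117 CPM in control against 209 in cKO, cKO over control 1.79 (1.30 to 2.50). The median lay close to that of all genes.

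Channel and calcium-store genes were sparse. Of 26 such genes, 15 reached 20 UMIs, 4 of them at least 2-fold higher and 1 lower in cKO, and the median was 0.57 (0.35 over 10 genes in nuclear-poor members). Cacnb2 and Cacna2d1, auxiliary subunits of L-type calcium channels, had ratios of 1.92 (1.20 to 3.23) and 2.77 (1.55 to 5.39). Kcnma1, the large-conductance potassium channel that dampens excitability, had 4 UMIs in control and 63 in cKO, and 30.2% of the latter lay in 1 cell. With a marker minimum of 2% its log2 ratio went from 2.36 to -1.31. Its accessory subunit Kcnmb1 had 20 UMIs in control and 83 in cKO, cKO over control 1.51 (0.919 to 2.60). Pln, phospholamban, which restrains the calcium pump of the sarcoplasmic reticulum, had 18 UMIs in control and 17 in cKO, cKO over control 0.344 (0.167 to 0.707). The pump gene Atp2a2 had a ratio of 1.52 (1.19 to 1.95) in all members and 0.925 (0.688 to 1.253) in nuclear-poor members, on different sides of 1. Without the 10 deepest cKO members the list median was 0.13.

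Receptors and gap junction genes of the contracting uterus were detected at low to moderate levels. Oxtr, the oxytocin receptor, had 284 CPM in control against 341 in cKO, cKO over control 1.20 (0.971 to 1.49), and was detected in 20.3% (14.7 to 26.9) of control members and 30.03% (25.5 to 34.9) of cKO members at 1000 UMIs. At 500 UMIs, which keeps all members, Oxtr was detected in 15.1% (10.7 to 20.4) and 16.0% (12.9 to 19.5). Gja1, the gap junction protein connexin 43, had 187 CPM in control against 389 in cKO, cKO over control 2.08 (1.63 to 2.70). In nuclear-poor members the Gja1 ratio was 1.01 (0.750 to 1.36), and 25.9% of its cKO UMIs lay in 1 cell. The higher Gja1 level was thus not seen in nuclear-poor members. Ptger3, a prostaglandin E2 receptor, had 22 UMIs in control and 105 in cKO, cKO over control 1.74 (1.09 to 2.89). Ptgis, the prostacyclin synthase, had 214 CPM in control against 282 in cKO, cKO over control 1.32 (1.03 to 1.69). Of 22 genes in this list, 10 were counted, 4 at least 2-fold higher and 0 lower in cKO, with a median of 0.77. In nuclear-poor members 1 of 8 was at least 2-fold higher, with a median of 0.54, and without the 10 deepest cKO members the median was 0.49. The list was also higher in cKO in non-members of similar depth, with a median of 0.99. In cells with a Ptprc UMI its median was 0.16. The median longest transcript of the list was 3165 bases. All genes of 2000 to 4000 bases had medians of 0.26 in those non-members and 0.30 in cells with a Ptprc UMI. Its genes summed to 873 CPM in control and 1386 in cKO members, against 661 and 1140 CPM in cell-free barcodes. Oxtr was detected in 5.48% of control and 13.1% of cKO non-members of similar depth at 1000 UMIs.

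The progesterone receptor was higher in cKO members, while the oestrogen receptor differed less. Pgr, the progesterone receptor, had 490.2 CPM in control against 1132 in cKO, cKO over control 2.31 (1.99 to 2.70), and in nuclear-poor members a ratio of 2.36 (2.00 to 2.79). At 1000 UMIs it was detected in 37.4% (30.3 to 44.8) of control members and 60.6% (55.5 to 65.5) of cKO members. Pgr was higher in other cells of the cKO library too: its log2 ratio was 1.20 in members, 1.42 in non-members of similar depth and 1.40 in cells with a Ptprc UMI, and its level in cell-free barcodes was 95.03 CPM in control against 371 in cKO. The part of the free RNA in the member difference was not tested. Esr1, the oestrogen receptor alpha, had 376 CPM in control against 434 in cKO, cKO over control 1.15 (0.960 to 1.40), and in nuclear-poor members cKO over control 1.44 (1.16 to 1.82). Greb1, an oestrogen-responsive cofactor, had 30 UMIs in control and 225 in cKO, cKO over control 2.73 (1.86 to 4.14). Igf1, a growth factor induced by oestrogen in the uterus, had 460.4 CPM in control against 882 in cKO, cKO over control 1.92 (1.64 to 2.26), and in nuclear-poor members 1.41 (1.17 to 1.71). Of 13 genes counted in this list, 3 were at least 2-fold higher and 0 lower, with a median of 0.20, the same as that of all genes to 2 decimals. In nuclear-poor members the median was 0.47 over 13 genes, with 3 at least 2-fold higher and 0 lower, against 0.20 for all genes.

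Regulators of the smooth muscle and uterine programme had few UMIs. Of 14 transcription factors counted, 2 were at least 2-fold higher and 0 lower, a share close to that of all genes, with a median of 0.57 (0.54 in nuclear-poor members). Klf4, which opposes myocardin in cultured smooth muscle, had 44 UMIs in control and 248 in cKO, cKO over control 2.05 (1.48 to 2.90), and with a marker minimum of 2% a log2 ratio of 0.033 in place of 1.02. Myocd, myocardin, had 9 UMIs in control and 68 in cKO, cKO over control 2.75 (1.37 to 6.27). Srf, its partner at CArG boxes, had 17 UMIs in control and 30 in cKO, cKO over control 0.642 (0.343 to 1.24), with a log2 ratio of 0.80 after thinning against -0.66. Jph2 (junctophilin), which ties the sarcoplasmic reticulum to the surface membrane and was carried in this list, had 58 UMIs in control and 274 in cKO, cKO over control 1.72 (1.29 to 2.32). Of 8 Hox code genes counted, which give the reproductive tract its position along the body axis, 4 were at least 2-fold higher and 0 lower, with a median of 1.00. Hoxa10, needed for uterine identity, had 39 UMIs in control and 237 in cKO, cKO over control 2.21 (1.57 to 3.19). The Hox list was higher in cKO by a median of 1.06 in non-members of similar depth and 1.34 in cells with a Ptprc UMI.

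Ranking by the interval limit nearer to 1 took genes whose higher library had 100 or more UMIs, spread so that no cell held over 10% of them, and a CPM at least 2 times that of its cell-free barcodes. The highest cKO-over-control ratios by this ranking included those of Zfp36l1, Slc4a7, Dyrk2, Pgr, Tagap, Map2k4, Id4, Zfp503, Rbpms, Actn1 and Tlnrd1. Zfp36l1, which speeds the decay of AU-rich transcripts, had 921 CPM in control against 2288 in cKO, cKO over control 2.48 (2.23 to 2.78). Dyrk2, a protein kinase, had 538 CPM in control against 1238 in cKO, cKO over control 2.30 (1.99 to 2.67). Map2k4, a kinase of the JNK pathway, had 24 UMIs in control and 196 in cKO, cKO over control 2.97 (1.94 to 4.75). Rbpms, an RNA-binding regulator of smooth muscle splicing, had 562 CPM in control against 1155 in cKO, cKO over control 2.05 (1.78 to 2.38). Id4, an inhibitor of basic helix-loop-helix factors, had 43 UMIs in control and 314 in cKO, cKO over control 2.66 (1.93 to 3.75). Several of these genes also had higher levels in cKO in the other cells. In non-members of similar depth the log2 ratio of Zfp36l1, Slc4a7, Dyrk2, Id4 and Rbpms ran from 0.78 (Zfp36l1 and Rbpms) to 1.40 (Id4). In cells with a Ptprc UMI it was 0.59 for Zfp36l1, 0.43 for Slc4a7, 0.89 for Dyrk2, 1.13 for Id4 and 0.69 for Rbpms. It was below 0 in both for Map2k4 (-0.48 and -0.27) and Actn1 (-0.13 and -0.07). The Id4 relatives Id1, Id2 and Id3 lay outside that ranking, since 1 cKO cell held over 10% of the UMIs of each, and were chosen after their values were seen. In nuclear-poor members Id1 had 12 UMIs in control and 206 in cKO, Id2 16 UMIs in control and 252 in cKO and Id3 32 UMIs in control and 406 in cKO. The Id3 ratio there was 5.87 (4.09 to 8.69), while its log2 ratio was 0.88 in non-members of similar depth and -0.20 in cells with a Ptprc UMI.

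The 12 genes lowest in cKO by the same ranking, which leaves out genes that missed its minimums, were Ndufa13, Actg2, Dbi, Atpif1, Cox5b, Pcp4, Cox7c, Ckb, Tpm2, Ogn, Cox8a and Lgals1. Pcp4 had 4773 CPM in control against 2158 in cKO and was 2.21-fold lower in cKO (2.08 to 2.35). Ckb had 1809 CPM in control against 813 in cKO and was 2.23-fold lower in cKO (2.02 to 2.46). Lgals1, the galectin of smooth muscle and stroma, had 1588 CPM in control against 760.1 in cKO and was 2.09-fold lower in cKO (1.88 to 2.32). Ogn, the matrix proteoglycan osteoglycin, had 649.5 CPM in control against 288 in cKO and was 2.25-fold lower in cKO (1.91 to 2.66). Dbi, which binds acyl-CoA esters, had 433 CPM in control against 149 in cKO and was 2.90-fold lower in cKO (2.33 to 3.61). Each of these 5 genes was lower in nuclear-poor cKO members as well, with log2 ratios of -0.94, -1.10, -1.10, -0.94 and -1.70. In non-members of similar depth their log2 ratios were 0.41, 0.11, -0.02, 0.27 and -0.11.

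Genes of the respiratory chain were lower together. All 79 nuclear-encoded genes of this list, which was chosen after the data were seen, reached 20 UMIs, with 17 at least 2-fold lower, 0 at least 2-fold higher and a median of -0.80. The ratio interval lay below 1 for 64 genes and above 1 for 0. The share of all genes by this interval call is not given, so these counts have no background. Ndufa13, of complex I, had 346 CPM in control against 112 in cKO and was 3.08-fold lower in cKO (2.40 to 3.95). Cox5b, Cox7c and Cox8a, of complex IV, were 2.71-fold, 2.31-fold and 2.14-fold lower. Atpif1, the inhibitor of the ATP synthase, was 2.73-fold lower in cKO (2.21 to 3.38). Atp5a1, the alpha subunit of that enzyme, had 538 CPM in control against 542 in cKO, cKO over control 1.01 (0.861 to 1.18). In nuclear-poor members the list median was -0.74. The list had medians of 0.11 in non-members of similar depth and 0.07 in cells with a Ptprc UMI. The 5 lower genes named here were below 0 in those non-members too, with log2 ratios of -1.16 for Ndufa13, -0.38 for Cox5b, -0.50 for Cox7c, -0.26 for Cox8a and -0.73 for Atpif1.

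Ribosomal protein genes were also lower in cKO members. Of 80 counted, the interval lay below 1 for 77, a call whose share over all genes is not given. With 0 at least 2-fold higher and 0 at least 2-fold lower, their median was -0.56 (-0.48 in nuclear-poor members). As a share of UMIs they were 23.8% of control members and 16.7% of cKO members, against 14.0% and 13.1% in all other cells. Control members had the highest of these 4 shares. The 13 genes of the mitochondrial genome, counted apart, had a median of -0.23 in all members and -0.67 in nuclear-poor members. With at least 1000 genes per cell that median was 0.46, so its direction depended on which members were counted.

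Both lists hold mostly short transcripts, and over all genes the ratio was lower for shorter transcripts. Genes whose longest transcript was under 1000 bases had a median log2 ratio of -0.56 (417 genes), those of 1000 to 2000 bases -0.04, of 2000 to 4000 bases 0.20, and of 4000 bases or more 0.42. Of the respiratory chain list, 44 of 79 genes lay under 1000 bases, and of the ribosomal protein list 47 of 80. Without both lists, the 326 remaining genes under 1000 bases had a median of -0.49. In nuclear-poor members the medians by length were -0.47, 0.03, 0.23 and 0.34. In non-members of similar depth they were -0.02, 0.24, 0.26 and 0.24, and in cells with a Ptprc UMI 0.005, 0.20, 0.30 and 0.36. Actg2, Tpm2, Myl9 and Pcp4 had longest transcripts of 1333, 2175, 1128 and 641 bases. What part length plays in the gene differences was not tested.

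**Figure D5:**
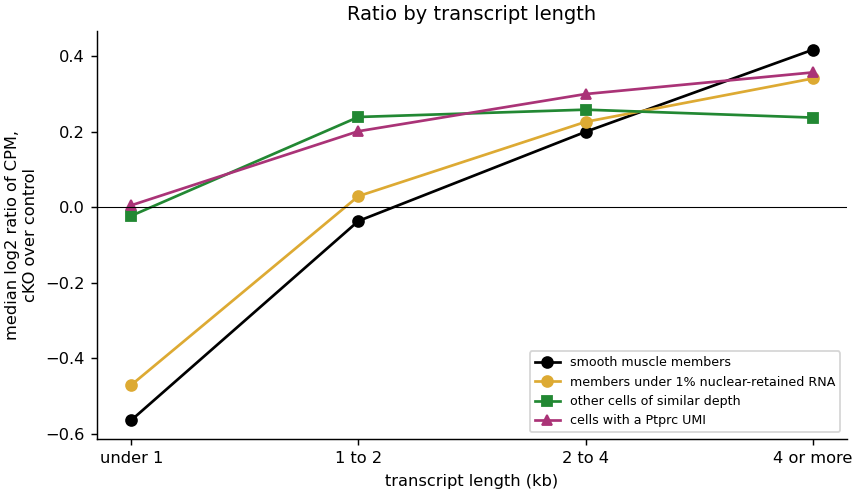
Median log2 ratio of CPM in cKO over control (vertical axis) for genes grouped by transcript length (horizontal axis, kilobases), in all members, nuclear-poor members, non-members of similar depth and cells with a Ptprc UMI. In members the medians run from -0.56 for genes under 1 kb to 0.42 for those of 4 kb or more, and in non-members of similar depth from -0.02 to 0.24.

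Genes that tie the cells to their matrix had medians close to that of all genes in all members and below it in the nuclear-poor set. Of 18 adhesion, dystrophin complex and caveolae genes counted, 3 were at least 2-fold higher and 1 lower, with a median of 0.26 in all members and -0.28 over 13 genes in nuclear-poor members. Itga5, a fibronectin-binding integrin, had a ratio of 2.91 (2.21 to 3.91) in all members and 1.23 (0.887 to 1.74) in nuclear-poor members. Cavin1 and Cav1, which form caveolae, had ratios of 1.01 (0.882 to 1.16) and 1.19 (0.964 to 1.47). The 18 interstitial matrix genes had medians of 0.20 and -0.56 in the 2 sets. Col1a1, a fibrillar collagen, had 48 UMIs in control and 407 in cKO, of which 48.4% in cKO lay in 1 cell. In nuclear-poor members the Col1a1 ratio was 0.616 (0.406 to 0.943). Tnc and Postn, matricellular proteins of stretched or remodelling tissue, had ratios of 1.55 (1.15 to 2.12) and 1.92 (1.41 to 2.67) in nuclear-poor members. Sparc, which binds collagen, had cKO over control 1.04 (0.894 to 1.22) in all members and 0.386 (0.309 to 0.482) in nuclear-poor members. The 12 basement membrane genes had medians of 0.18 and -0.18. Without the 10 deepest cKO members the medians were -0.03 for adhesion, 0.00098 for interstitial matrix and -0.11 for basement membrane genes.

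Among early response genes, Fos and Egr1 had different directions in all members and in nuclear-poor members. Of 25 immediate early and dissociation genes counted, 4 were at least 2-fold higher and 0 lower in cKO, with a median of 0.55. In nuclear-poor members the median was 0.44 over 24 genes, with 1 at least 2-fold higher and 4 lower. Fos had cKO over control 1.26 (1.08 to 1.47) in all members and 0.473 (0.348 to 0.642) in nuclear-poor members. Egr1 had cKO over control 1.21 (1.05 to 1.40) and 0.462 (0.360 to 0.594). Both were thus higher in cKO over all members and lower in the nuclear-poor set. The heat shock gene Hspa1b had 56 UMIs in control and 1085 in cKO, of which 65.7% in cKO lay in 1 cell, and a ratio of 0.945 (0.657 to 1.38) in nuclear-poor members. 

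Few inflammation and interferon genes had UMIs enough to be counted, and Nfkbia was higher in cKO. Nfkbia, the inhibitor induced by NF-kB, had 44 UMIs in control and 343 in cKO, cKO over control 2.84 (2.07 to 3.98), and in nuclear-poor members 3.62 (2.36 to 5.79). Ccl2, a chemokine for monocytes, had 8 UMIs in control and 88 in cKO, cKO over control 4.005 (1.95 to 9.57), and 20.5% of the cKO UMIs lay in 1 cell. Of 18 inflammation genes, 6 were counted, 3 at least 2-fold higher and 1 lower. Of 30 interferon response genes, 6 reached 20 UMIs, 0 at least 2-fold higher and 1 lower. Isg15, a ubiquitin-like antiviral protein, had 20 UMIs in control and 2 in cKO, cKO over control 0.0364 (0.00413 to 0.150). The sums of the interferon list in members lay below those of cell-free barcodes. In non-members of similar depth the interferon list had a median of -1.78, and its sum in cell-free barcodes was 4925 CPM in control and 3639 CPM in cKO, against 752 and 502 CPM in members.

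Glycolytic enzymes did not share one direction. Of 17 hypoxia and glycolysis genes counted, 3 were at least 2-fold higher and 0 lower, with a median of 0.29. In nuclear-poor members 2 of 15 were at least 2-fold higher and 1 lower, with a median of 0.61. The list median was -0.43 in non-members of similar depth and -0.35 in cells with a Ptprc UMI. Gapdh had 1159.7 CPM in control against 851 in cKO, cKO over control 0.734 (0.656 to 0.822), while Pgk1, the enzyme of the step that follows, had 311 CPM in control against 476 in cKO, cKO over control 1.53 (1.26 to 1.87). Bnip3, a hypoxia-induced gene of mitochondrial removal, had 10 UMIs in control and 84 in cKO, cKO over control 3.06 (1.58 to 6.61). Of 18 proliferation genes, 3 were counted, and Pcna, the replication clamp, had 100 UMIs in control and 301 in cKO, cKO over control 1.096 (0.871 to 1.39).

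Within each library the members varied around these levels. Among nuclear-poor members thinned to 1000 UMIs, 158 in control and 348 in cKO, the rule genes gave 11, 20.5 and 39 UMIs at the 10th percentile, the median and the 90th percentile in control. In cKO they gave 11, 17 and 30. Respiratory chain genes gave 17.7, 27.5 and 39 UMIs in control and 10, 17 and 24 in cKO, and the cKO median lay below the 10th percentile of control. Ribosomal protein genes gave 169, 242 and 337.5 and 125, 185 and 262 UMIs. The mitochondrial genome gave 0, 31 and 103 and 0, 15.5 and 90.3 UMIs. Steroid receptor and cofactor genes gave 0, 2 and 4 and 1, 3 and 6.30 UMIs.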

How the data were processed

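Whole uteri of 6-month-old mice were dissociated enzymatically and made into 2 droplet 3′ libraries, 1 for each group, each from a pool of 3 mice, per the labels. The deposited matrices hold raw UMI counts for all barcodes. They were made with Cell Ranger, version 6.1.1 on mm10 per the submitters' processing notes, while the file headers name Cell Ranger 4. Barcodes with at least 500 genes and at most 20% mitochondrial UMIs were kept (283 control and 46 cKO barcodes exceeded that limit). Doublets were scored with scanpy 1.11.5. Scores exceeded 0.25 in 43 control and 61 cKO cells, which were kept and left out in an alternative.

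Counts were summed over the members of each library. With 1 library a group there is no test across samples. CPM has exact Poisson intervals, ratios exact conditional binomial intervals and shares Clopper-Pearson intervals. log2 ratios add 0.5 UMIs to each sum, except in counts under a minimum for the higher library, and list medians use genes with at least 20 UMIs over both libraries. Detection was compared after thinning each cell to 1000 UMIs, leaving out shallower cells. Genes were named from the lists, from the 12 highest and 12 lowest ratios, and from the 20 most enriched in members. The rank was set by whichever bound of the interval lay closer to 1. A gene was ranked if the library with more had 100 or more UMIs, found in 5% or more of its members, no cell held over 10% of them, and its CPM there was at least 2 times the cell-free CPM, leaving out mitochondrial, ribosomal protein, haemoglobin, immunoglobulin and Gm or Rik genes. Others are said to be chosen after their values were seen. Transcript lengths are the longest transcript in GENCODE M21. TMM factors came from edgeR 4.0.16. Alternatives changed the gene, mitochondrial and marker minimums, the gate, the weight of cells, the depth, the scaling and the UMI minimum. Interval coverage was tested on simulated data. The members and lists were chosen with earlier results of these data known, and the respiratory chain, ribosomal protein, mitochondrial genome and nuclear RNA lists were added after the counts were seen. A few genes that these rules select are not reported here.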

Additional observations from a re-analysis of the deposited data

How the results depend on the processing

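Values here are log2 ratios of cKO over control unless named otherwise. Values were recomputed for both shares, both counts of genes and 5 list medians (actomyosin, receptors and gap junction, steroid receptors, respiratory chain, ribosomal protein). Of these 108 values, 93 were counted as unchanged. A share or list median was so counted inside the counting interval of its reported value, for a list that of its middle genes. A gene count was so counted within a set fold of the reported count. The rule is wide for lists. All actomyosin and receptor medians passed it, yet ran from 0.0035 to 0.18 against 0.19 reported, and from 0.49 to 1.21 against 0.77. The values counted as changed follow, with other lists whose interval excluded 0, and genes whose interval excluded 1, that took the opposite sign. The share of all cells had a ratio of 0.047 at a marker minimum of 2%. The share of cells without Ptprc and Epcam UMIs had a ratio of 0.14 at 1000 genes and -0.21 at the 2% minimum, and the setting without that gate gives no value for it. The number of genes at least 2-fold higher was 109 at the 2% minimum, 152 after thinning, 236 in members under 1% nuclear-retained RNA, 253 without members over 10000 UMIs, 933 at a minimum of 20 UMIs and 88 at 200, and genes at least 2-fold lower numbered 26 after thinning, 145 at a minimum of 20 UMIs and 15 at 200. These minimums apply to the library with the higher level, and the counts use folds without the added 0.5 UMIs, unlike the counts of 858 and 329 over genes with at least 20 UMIs in both libraries together. The 20 and 200 UMI settings test more or fewer genes. The steroid list had a median of 0.50 at the 2% minimum, the ribosomal protein list -0.45 with cells weighted equally and -0.66 with TMM factors, the rule genes 0.026 at the 2% minimum and the mitochondrial genome 0.46 at 1000 genes. Lists whose interval included 0 and whose medians had both signs were adhesion (-0.28 to 0.63), basement membrane (-0.25 to 0.77), interstitial matrix (-0.56 to 0.65), interferon response (-1.04 to 0.45) and stromal fibroblast (-0.74 to 0.038). Opposite signs were found at the 2% minimum for Mylk (0.034), Vcl (-0.14), Kcnma1 (-1.31), Wnt5a (-0.47), Egr1 (-1.17), Fos (-0.75) and Malat1 (-0.59), and at 0.5% for Egr1 (-0.23) and Malat1 (-0.27). With cells weighted equally they were found for Vcl (-0.15), Atp2a2 (-0.11), Egr1 (-0.76), Fos (-0.67) and Malat1 (-0.94). After thinning they were found for Gja1 (-0.19), Mylk (0.0074), Vcl (-0.63), Atp2a2 (-0.32), Egr1 (-0.58), Fos (-0.74) and Malat1 (-0.68). In members under 1% nuclear-retained RNA they were found for Mylk (0.064), Cald1 (-0.052), Atp2a2 (-0.12), Col1a1 (-0.70), Egr1 (-1.11), Fos (-1.08), Hspa1b (-0.090) and Malat1 (-1.24), a gene that set that limit. Without members over 10000 UMIs they were found for Egr1 (-1.04), Fos (-1.10) and Malat1 (-0.41), and without its top cell for Egr1 (-0.032). Genes whose interval included 1 are not listed above, and of these Prickle1 (-0.11 to 1.73), Csrp1 (-0.20 to 0.24), B2m (-0.16 to 0.45), Cnn1 (-0.063 to 0.22) and Srf (-0.82 to 0.80) had both signs among the alternatives. Detection of Tpm2 after thinning to 2000 UMIs differed by 2.25 percentage points. For these values the cause was not tested. The nuclear RNA and 10000 UMI settings were chosen after seeing the data. Each group was 1 library, so no library could be left out, and genes with few UMIs have wide intervals.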

Other observations

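Some genes outside the lists were looked at after their values were seen. Inhbb, the beta subunit of inhibin B and activin B, had 217 CPM in control against 805 in cKO, cKO over control 3.72 (2.98 to 4.69), and in nuclear-poor members 3.48 (2.70 to 4.54). Cebpb, a transcription factor of the inflammatory and decidual response, had 961 CPM in control against 1941 in cKO, cKO over control 2.02 (1.81 to 2.26), and in nuclear-poor members 2.38 (2.12 to 2.68). S100a6, a small calcium-binding protein outside the ranking since its cell-free level in control was 778 CPM, had 500.2 CPM in control against 114 in cKO, cKO over control 0.228 (0.181 to 0.287), and in nuclear-poor members 0.266 (0.207 to 0.342). In non-members of similar depth the log2 ratios were 1.06 for Inhbb, 0.84 for Cebpb and -0.71 for S100a6. Ctla2a, which resembles a cathepsin propeptide, had 159 CPM in control against 2800.4 in cKO, and 65.9% of its cKO UMIs lay in 1 cell. Wfikkn2, a secreted inhibitor of GDF ligands, had 0 UMIs in control and 150 in cKO, and 84% of these lay in 1 cell.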
